A study of Arabidopsis thaliana with 12 samples.

Results

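The 50 genes described here encode the machinery that copies chromosomal DNA in Arabidopsis thaliana and the E2F factors linked to it. They were chosen by locus identifier from the 34262 loci of each count file: 17 genes for licensing of replication origins, 6 for activation of the replicative helicase, 6 polymerase and primase subunits, 9 for the sliding clamp, its loader and ligation, 3 ribonucleotide reductase subunits, 3 subunits of chromatin assembly factor 1 (CAF-1) and 6 E2F, DP and RBR genes. All 50 were found in the files, and all 50 were among the 21439 genes tested. Their counts lay between 50 and 12909 per library.

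RNA sequencing was done on root segments of plants carrying 35S:XVE>>PLT5-TagRFP, in which estradiol activates the regulator XVE and XVE then switches on the transcription factor PLT5 fused to a red fluorescent protein. The 4 groups were roots induced with estradiol for 8 h, roots given the solvent DMSO (mock) for 8 h, roots induced for 24 h and mock roots at 24 h, each with 3 biological replicates. Every library pooled 15 plants, from which 1.5 cm of root under the hypocotyl junction was taken and visible lateral roots were removed. All groups carried the transgene, and the broadly active 35S promoter drove XVE. The number of independent lines is not given in the sources used here, and no estradiol-treated plants without the transgene were analysed here, so effects of estradiol and of PLT5 cannot be told apart.

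DNA replication begins with the origin recognition complex (ORC), which recruits CDC6 and CDT1 to load the ring-shaped MCM helicase onto DNA before S phase. CDC45, the GINS complex and MCM10 turn the loaded rings into active helicases, and polymerases, the PCNA clamp and ribonucleotide reductase then build and feed the fork. E2F factors, paired with DP partners, bind promoters of many of these genes and are held in check by the retinoblastoma protein RBR1. In mature roots, cell division goes on mainly in the vascular cambium, the cork cambium and lateral root primordia.

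Because E2F factors recognise a short DNA word, the 250 bases before the annotated start of each member were read from the RefSeq TAIR10.1 genome and searched on both strands for the words TTTCCCGC, TTTCCCGG, TTTGGCGC, TTTGGCGG, TTTCGCGC, TTTCGCGG, TTTGCCGC and TTTGCCGG. At least 1 word lay before 19 of the 50 members (38.0%), against 768 of 27442 protein-coding genes (2.8%). More than 1 place was found before 6 members (12.0%), against 0.2% of protein-coding genes, where places on opposite strands may overlap, as they did before ORC1A and ORC3. Of the 25 places, 23 began within 80 bases of the start, and 12 were the word TTTCCCGC. The telomere-like word AAACCCTA lay before 3 members (6.0%, against 4.5% of protein-coding genes), and the site II words TGGGCC or TGGGCT before 24 (48.0%, against 19.2%). No E2F word overlapped one of these other words. The 10 stretches of 60 bases printed here cover members of different roles, so that the words can be set beside the responses described later. Each is written 5′ to 3′ along the gene's own strand, with E2F words of either strand in capitals.
MCM2 (helicase, chr1:16970154-16970213, plus strand): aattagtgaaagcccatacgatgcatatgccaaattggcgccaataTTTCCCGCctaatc
MCM3 (helicase, chr5:18773732-18773791, minus strand): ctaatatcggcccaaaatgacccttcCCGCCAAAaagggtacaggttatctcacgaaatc
MCM5 (helicase, chr2:3527501-3527560, minus strand): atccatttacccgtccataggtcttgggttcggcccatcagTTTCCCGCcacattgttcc
ORC3 (origin recognition, chr5:5474294-5474353, plus strand): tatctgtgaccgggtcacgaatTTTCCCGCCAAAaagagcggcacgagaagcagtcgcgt
CDC45 (helicase activation, chr3:9143856-9143915, plus strand): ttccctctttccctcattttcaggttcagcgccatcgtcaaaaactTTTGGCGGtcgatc
PSF2 (GINS, chr3:3974441-3974500, minus strand): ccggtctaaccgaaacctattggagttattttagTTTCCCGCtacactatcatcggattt
ICU2 (polymerase alpha, chr5:26776876-26776935, plus strand): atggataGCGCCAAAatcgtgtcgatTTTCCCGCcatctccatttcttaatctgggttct
POLA3 (primase, chr5:16760786-16760845, plus strand): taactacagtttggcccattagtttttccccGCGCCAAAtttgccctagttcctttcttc
FAS1 (CAF-1, chr1:24324125-24324184, minus strand): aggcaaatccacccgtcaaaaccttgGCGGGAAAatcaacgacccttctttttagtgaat
RBR1 (E2F inhibitor, chr3:3919402-3919461, minus strand): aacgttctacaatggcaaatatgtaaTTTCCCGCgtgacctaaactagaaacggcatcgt

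Library totals ranged from 34958324 to 41447647 counts, and levels are given as CPM, the count relative to the library's TMM-scaled total. A gene is said to have risen or fallen where its adjusted p was under 0.05 in edgeR's quasi-likelihood test, adjusted over all tested genes by the Benjamini-Hochberg method. PLT5, whose count can hold reads of its own locus and of the transgene, followed the labels in all 12 libraries, with 2383 to 2632 CPM in induced and 12.3 to 15.0 CPM in mock roots at 8 h, and 2688 to 2929 CPM in induced and 11.8 to 17.2 CPM in mock roots at 24 h. Induction moved a large part of the transcriptome: 22.3% of tested genes rose and 23.1% fell at 8 h, and 38.3% rose and 34.0% fell at 24 h. With total library size in place of TMM, the median log2 fold change over the tested genes shifted upwards by 0.096 (8 h) and 0.142 (24 h). Of the called genes, 65.1% were then higher at 8 h, against 49.1% with TMM and 43.8% with RLE factors, and at 24 h the figures were 62.9%, 53.0% and 49.5%.

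The replication and E2F genes rose partly at 8 h and almost throughout at 24 h. At 8 h, 23 of 50 rose and 1, CDC45, fell. The median log2 fold change of the 50 was 0.23, against 0.02 over all tested genes, and 44 of the 50 values were above 0. At 24 h, 46 rose and none fell, with a median of 0.67, against 0.06 over all tested genes. CDC45, PCNA2, RNR2A and DPB were not called at 24 h. Fold changes were modest: 4 members, E2FA, RFC4, ORC1B and TSO2, rose by at least 1 on the log2 scale at 24 h, a size of rise that 5.83% of tested genes reached.

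The libraries of the induced and mock groups separated for most members. At 8 h, 28 members had all 3 induced libraries above all 3 mock libraries, against 28.2% of tested genes, and CDC45 had them below. At 24 h, 45 members had every induced library above every mock library, against 40.4% of tested genes. Libraries within a group were ordered alike across members: mock 8 h replicate 2 held the lowest level of its group for 42 members, mock 24 h replicate 2 for 40, induced 24 h replicate 3 for 45 and induced 8 h replicate 1 for 36. The same order was not counted over all tested genes, so it cannot be called particular to the members. Without mock 8 h replicate 2, 17 members rose at 8 h, and without mock 8 h replicate 1, 30 did. With total library size alone, 36 members rose at 8 h. The lists of members that rose were thus less settled at 8 h than at 24 h, where between 44 and 46 rose whichever library was left out.

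**Figure D1:**
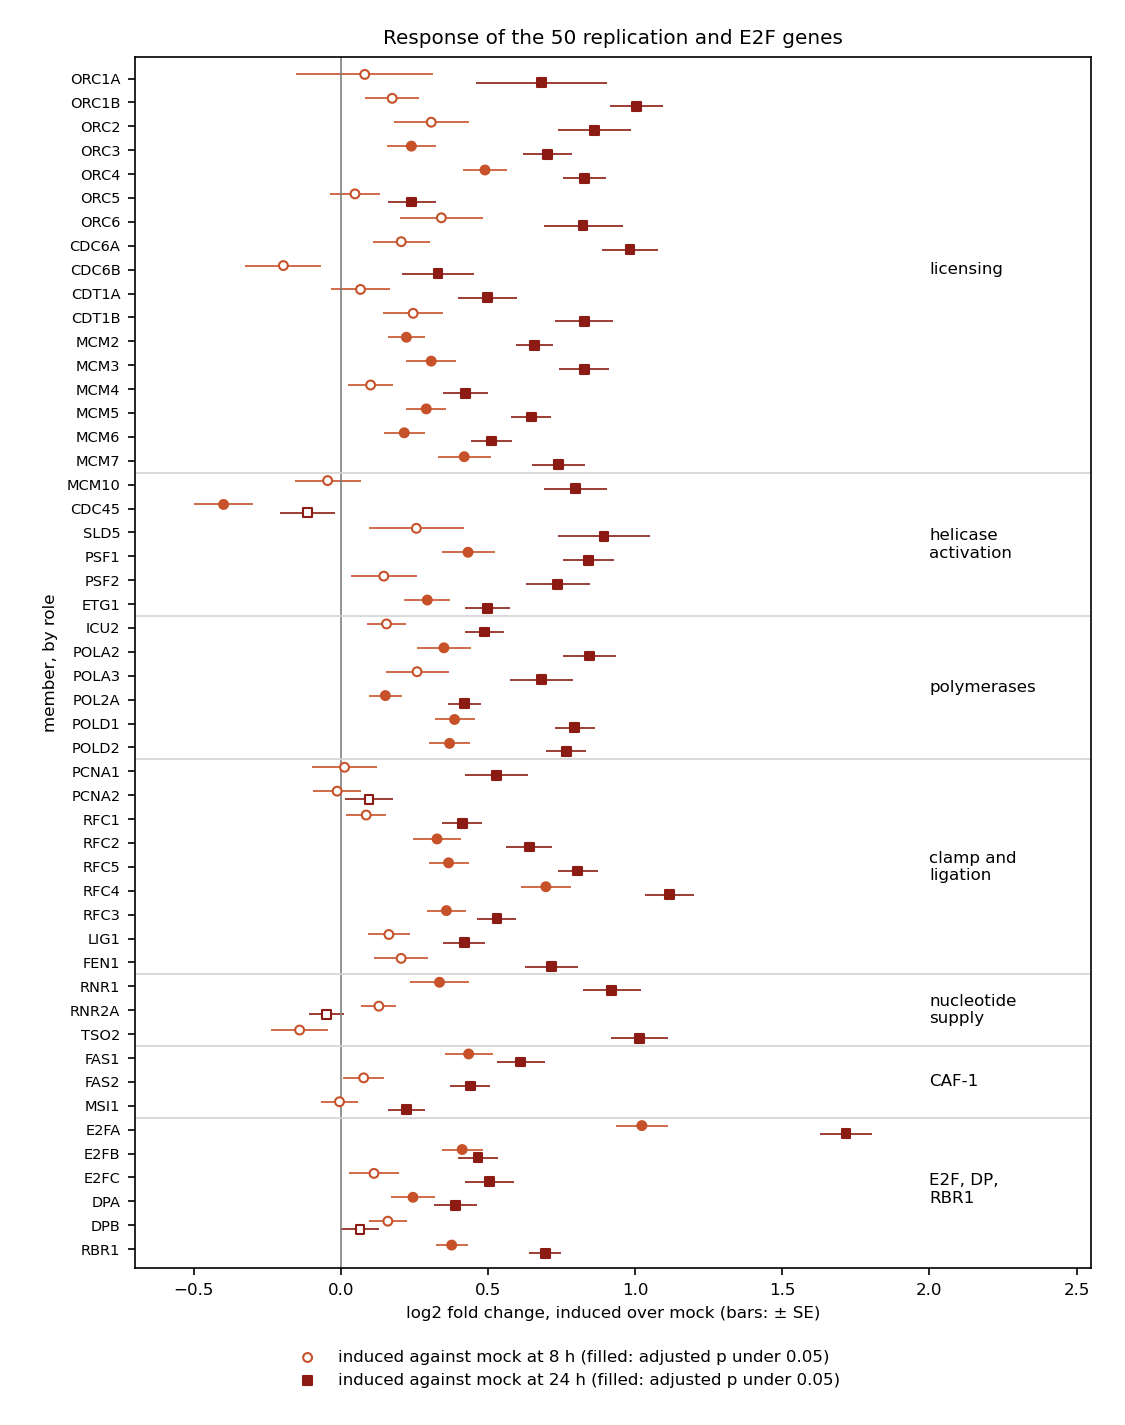
Log2 fold change of induced over mock roots (x axis) with its standard error for each of the 50 members (y axis, by role), at 8 h (circles) and 24 h (squares), filled where the adjusted p was under 0.05. Nearly all squares lie to the right of their circles, E2FA stands farthest right at 1.02 and 1.72, and CDC45 is the filled circle left of 0.

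The response at 24 h was larger than at 8 h for most members. The difference of the responses was called higher for 35 of 50, against 18.2% of tested genes, and lower for none, against 22.6%, with a median difference of 0.40 on the log2 scale. Members fell into few patterns, whose shares among all tested genes were not counted. Taken singly, 22.3% of tested genes rose at 8 h and 38.3% at 24 h. Both times and the difference were called higher for 17 members, among them E2FA, RBR1, RNR1, POLD1 and RFC4. Another 18 were not called at 8 h, rose at 24 h and had a larger response at 24 h, among them ORC1B, CDC6A, CDT1B, MCM10, PCNA1 and TSO2. MCM7, ETG1, RFC3, FAS1, E2FB and DPA rose at both times with no call of the difference.

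Few genes separated the mock roots of the 2 times. None of the 50 members was called between mock roots at 24 h and at 8 h by edgeR with TMM and no replicate block, against 0.662% of tested genes. At an unadjusted p under 0.05 there were 12 of 50, all higher at 24 h, against 2032 of 21439 tested genes in either direction. DESeq2 called 1 member, CDC45, and so did edgeR with total library size and edgeR with a replicate block. The median log2 difference, 24 h minus 8 h, was 0.11 over the members, against -0.004 over all tested genes. Of the 50 members, 47 were above 0.

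Among the 6 regulators, E2FA (AT2G36010, chromosome 2, 15119516 to 15123184, plus strand, TAIR10), generally counted as an activating E2F, gave the largest response of all 50 members. E2FA had 14.8, 17.1 and 15.1 CPM in the induced and 8.59, 7.52 and 6.99 CPM in the mock libraries at 8 h. At 24 h it had 28.2, 26.5 and 25.9 CPM in the induced and 8.70, 7.56 and 8.27 CPM in the mock libraries. All induced libraries lay far above all mock libraries at both times, and those at 24 h above those at 8 h. E2FA rose by 1.02 on the log2 scale after 8 h (SE 0.0894, adjusted p = 2.7e-06). After 24 h the rise was 1.72 (SE 0.0879, adjusted p = 3.89e-09), and the difference of 0.69 was called (SE 0.125, adjusted p = 0.000856).

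E2FB, the other factor usually counted as an activator, rose by the same order at both times. It had 15.9, 17.3 and 18.97 CPM in induced and 13.7, 12.95 and 12.5 CPM in mock libraries at 8 h, and 17.3, 17.8 and 18.2 CPM in induced and 13.1, 12.5 and 13.04 CPM in mock libraries at 24 h. The groups did not overlap, with log2 fold changes of 0.41 at 8 h (adjusted p = 0.000479) and 0.47 at 24 h (adjusted p = 6.03e-05). The difference of its responses was 0.05 (SE 0.0983) and was not called (adjusted p = 0.699).

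E2FC, known mainly as a repressor, had 16.2, 17.7 and 16.9 CPM in induced and 16.1, 15.0 and 15.8 CPM in mock libraries at 8 h, and was not called. At 24 h it had 26.2, 23.3 and 20.5 CPM in induced and 15.9, 15.9 and 17.6 CPM in mock libraries, where it rose by 0.50 (SE 0.084, adjusted p = 0.000151). The induced 24 h libraries spread more than the others but all lay above the mock libraries. E2FA made up 26.8% to 29.7% of the summed length-scaled level of the 3 E2F genes in induced roots at 8 h, against 17.5% to 19.8% in mock roots, and 35.6% to 36.6% in induced roots at 24 h, against 18.6% to 20.5% in mock roots. E2FC had the highest mean share of the 3 in every group, and stood at 36.4% to 41.5% in induced and 47.1% to 50.1% in mock roots at 24 h. These shares divide CPM by exon length within a library, so library scaling cancels out.

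DPA and DPB encode the dimerisation partners of the E2Fs. DPA had 18.5, 17.5 and 17.9 CPM in induced and 15.9, 13.8 and 15.7 CPM in mock libraries at 8 h, and 22.5, 20.3 and 19.6 CPM in induced and 16.7, 15.3 and 15.6 CPM in mock libraries at 24 h. It rose by 0.24 at 8 h (adjusted p = 0.0165) and 0.39 at 24 h (adjusted p = 0.000363), with no overlap of the groups. The 8 h call of DPA was lost without induced 8 h replicate 1 or without mock 8 h replicate 2 (adjusted p = 0.0683 for each). DPB had 22.4, 21.3 and 19.7 CPM in induced and 18.7, 19.3 and 18.8 CPM in mock libraries at 8 h, and 19.6, 19.3 and 17.8 CPM in induced and 18.8, 18.3 and 17.1 CPM in mock libraries at 24 h. DPB was called at neither time, with log2 fold changes of 0.16 (SE 0.0648) and 0.06 (SE 0.0649). Its groups did not overlap at 8 h and overlapped at 24 h. With total library size DPB was called higher at both times (adjusted p = 0.00567 and 0.0111), and on leaving out induced 8 h replicate 3 it was called at 8 h.

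RBR1 (AT3G12280, chromosome 3, 3913349 to 3919359, minus strand), the E2F inhibitor, rose together with E2FA. It had 114, 122 and 121 CPM in induced and 95.9, 88.5 and 90.2 CPM in mock libraries at 8 h, and 157, 152 and 151 CPM in induced and 93.2, 89.9 and 101 CPM in mock libraries at 24 h. The groups were well apart. RBR1 rose by 0.38 after 8 h (SE 0.0541, adjusted p = 0.000141), and the rise after 24 h was 0.69 (SE 0.0541, adjusted p = 1.77e-07). Per kb of exon, RBR1 stood at 39.8 CPM in induced and 24.6 CPM in mock roots at 24 h, against 12.7 and 3.87 CPM per kb for E2FA in induced and mock roots at that time.

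**Figure D2:**
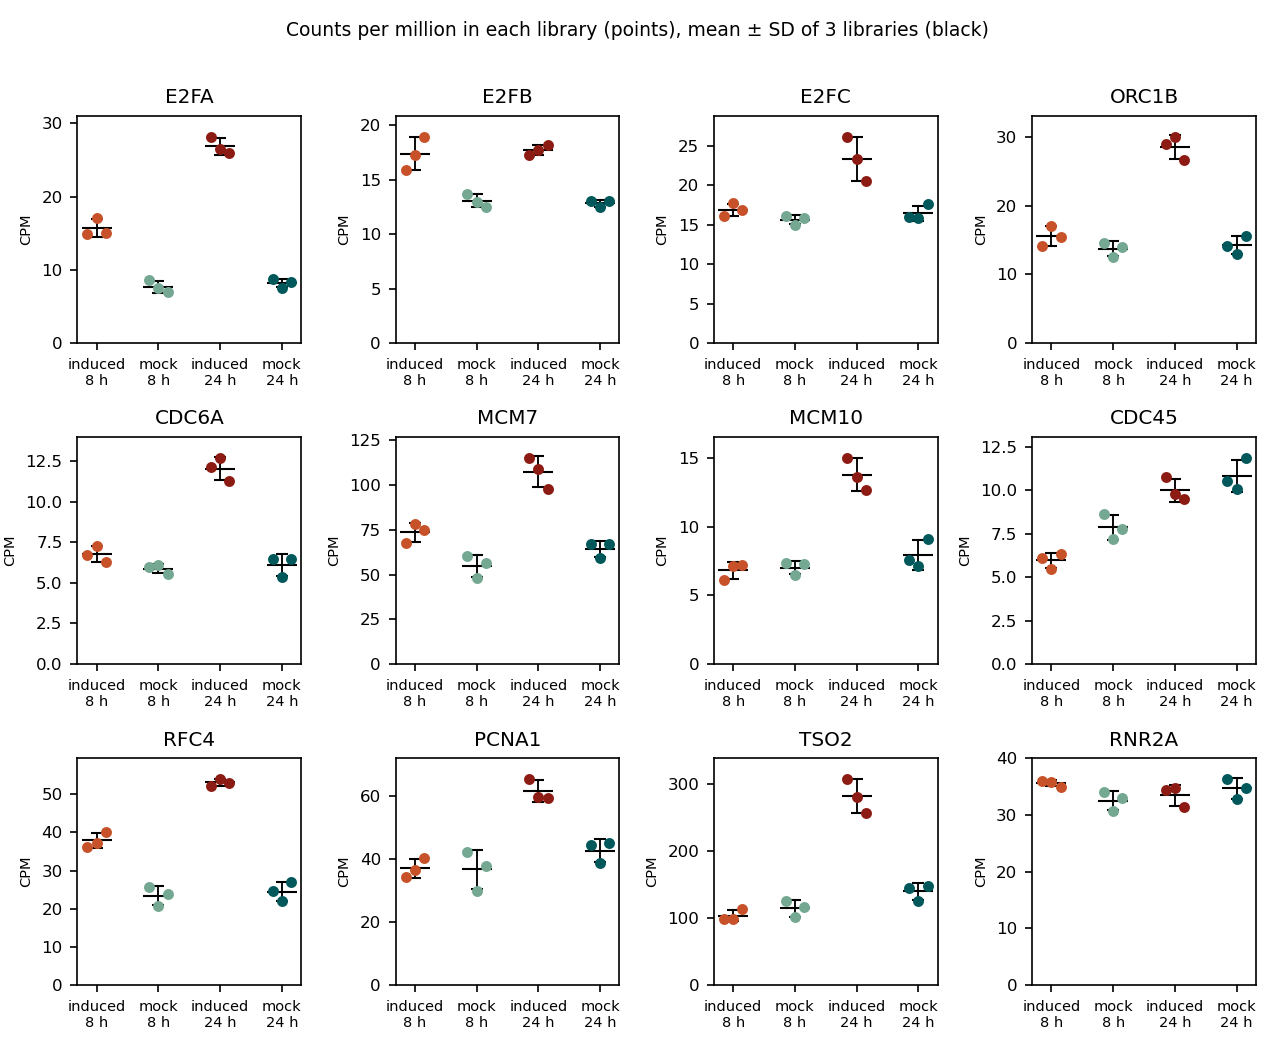
CPM (y axis, each panel with its own scale from 0) of 12 members in each library of the 4 groups, with the mean and SD of 3 libraries. E2FA is the one gene of these panels near a doubling at 8 h, and ORC1B, MCM10, PCNA1 and TSO2 stand out at 24 h alone. CDC6A stands slightly apart at 8 h and far apart at 24 h. CDC45 is lower in induced than in mock roots at 8 h, and RNR2A is close to the same height in all groups.

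Origin licensing genes rose throughout at 24 h. All 17 were called higher at 24 h, with a median log2 fold change of 0.70, while 7 of 17 were called higher at 8 h. The shares of all tested genes called higher were 38.3% at 24 h and 22.3% at 8 h. The 8 h count was 4 on leaving out replicate 2 of either 8 h group, 11 on leaving out mock 8 h replicate 1 and 13 with total library size. The difference of the responses was called higher for 13, and for 7 on leaving out induced 24 h replicate 1, mock 24 h replicate 2 or mock 8 h replicate 1.

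Within ORC, the complex that marks origins, ORC4 was the subunit with the clearest early rise. It had 25.4, 27.3 and 24.6 CPM in induced and 19.1, 16.5 and 19.3 CPM in mock libraries at 8 h, and 39.9, 38.7 and 35.1 CPM in induced and 21.6, 20.4 and 22.01 CPM in mock libraries at 24 h. No libraries of induced and mock groups overlapped. ORC4 rose by 0.49 after 8 h (SE 0.0746, adjusted p = 0.000223) and by 0.83 after 24 h (SE 0.0735, adjusted p = 5.87e-07). It shares 80 bases with AT2G01130 on the opposite strand, which had a mean of 1788 counts against 1021 for ORC4. ORC3 rose by 0.24 at 8 h (adjusted p = 0.0327), a call lost in 6 of 19 alternative fits with adjusted p between 0.06 and 0.122, and by 0.70 at 24 h. ORC2 and ORC6 rose at 24 h by 0.86 and 0.82, and gave 0.31 and 0.34 at 8 h, where they were not called (adjusted p = 0.0669 and 0.0682). Both were called at 8 h with total library size (adjusted p = 0.0179 and 0.0207) and on leaving out mock 8 h replicate 1. ORC5 gave the smallest rise of the complex at 24 h, 0.24 (SE 0.082, adjusted p = 0.0192), with overlapping groups, and its call was lost in 7 of 19 alternative fits with adjusted p up to 0.0992.

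ORC1, the largest ORC subunit, is encoded by a pair of genes that share few reads: 2.1% of the 50-base windows of ORC1A occur in ORC1B. ORC1B had 14.1, 17.01 and 15.5 CPM in induced and 14.6, 12.6 and 14.03 CPM in mock libraries at 8 h, and 28.9, 30.1 and 26.7 CPM in induced and 14.1, 12.98 and 15.6 CPM in mock libraries at 24 h. The groups overlapped at 8 h and were far apart at 24 h, where ORC1B rose by 1.01 (SE 0.0896, adjusted p = 6.16e-07). ORC1A had 1.46, 2.66 and 2.63 CPM in induced and 2.56, 1.50 and 2.28 CPM in mock libraries at 8 h, and 4.05, 3.84 and 3.51 CPM in induced and 2.50, 2.38 and 2.23 CPM in mock libraries at 24 h, where it rose by 0.68 (SE 0.222, adjusted p = 0.015). ORC1A was the lowest of the 50 members per kb of exon in all 4 groups, at 1.50 CPM per kb in induced and 0.936 CPM per kb in mock roots at 24 h. It overlaps 94 bases of AT4G14710 on the opposite strand, which had a mean of 4147 counts against 104 for ORC1A. Since the sources used here do not state whether counting used strand, the ORC1A level is uncertain.

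CDC6 and CDT1, the loaders of the MCM ring, each have 2 copies, whose fold changes are given side by side since the difference between copies was not tested. CDC6A had 6.73, 7.27 and 6.31 CPM in induced and 5.96, 6.12 and 5.55 CPM in mock libraries at 8 h, and 12.1, 12.7 and 11.3 CPM in induced and 6.49, 5.35 and 6.46 CPM in mock libraries at 24 h. CDC6B had 3.78, 3.47 and 3.94 CPM in induced and 4.86, 3.57 and 4.36 CPM in mock libraries at 8 h, and 6.48, 6.16 and 5.60 CPM in induced and 5.38, 4.68 and 4.46 CPM in mock libraries at 24 h. Neither was called at 8 h (log2 fold changes 0.20 for CDC6A and -0.20 for CDC6B), and at 24 h all induced libraries were above all mock libraries for both. At 8 h the CDC6A groups did not overlap and the CDC6B groups did. With total library size CDC6A was called higher at 8 h (adjusted p = 0.0211). At 24 h CDC6A rose by 0.98 (SE 0.0938, adjusted p = 1.16e-06) and CDC6B by 0.33 (SE 0.124, adjusted p = 0.0297), the CDC6B call being lost in 7 of 19 alternative fits with adjusted p up to 0.0974. CDC6A took 61.5% to 63.8% of the summed length-scaled CDC6 level in induced roots at 24 h and 49.4% to 55.3% in mock roots, with no overlap. At 8 h the shares were 57.8% to 64.2% in induced and 51.1% to 59.4% in mock roots, which overlapped.

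CDT1A had 23.1, 26.2 and 26.7 CPM in induced and 25.4, 20.7 and 26.3 CPM in mock libraries at 8 h, and 40.8, 34.2 and 34.5 CPM in induced and 26.6, 24.0 and 26.9 CPM in mock libraries at 24 h. CDT1B had 9.45, 10.4 and 9.41 CPM in induced and 9.33, 6.96 and 8.32 CPM in mock libraries at 8 h, and 18.8, 17.8 and 16.7 CPM in induced and 10.7, 9.31 and 10.03 CPM in mock libraries at 24 h. The groups were apart for both copies at 24 h, with rises of 0.50 for CDT1A (SE 0.0991, adjusted p = 0.000618) and 0.83 for CDT1B (SE 0.0983, adjusted p = 8.33e-06). Neither was called at 8 h. CDT1B made up 35.5% to 38.3% of the length-scaled CDT1 level in induced and 30.8% to 32.5% in mock roots at 24 h.

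All 6 subunits of the MCM2-7 helicase rose at 24 h, by 0.42 (MCM4) to 0.83 (MCM3). At 8 h 5 of them, all but MCM4, were called higher, by 0.22 to 0.42. The 8 h call of MCM6 was lost in 5 of 19 alternative fits (adjusted p up to 0.0884). That of MCM2 was lost in 2 (adjusted p up to 0.0537). MCM4 was called at 8 h with total library size and on leaving out mock 8 h replicate 1. MCM7 gave the lowest adjusted p of the 6 at 8 h. It had 67.6, 78.1 and 74.8 CPM in induced and 60.4, 48.3 and 56.2 CPM in mock libraries at 8 h, and 115, 109 and 97.9 CPM in induced and 66.8, 59.1 and 67.1 CPM in mock libraries at 24 h. Its groups did not overlap, with log2 fold changes of 0.42 (SE 0.0908, adjusted p = 0.00262) and 0.74 (SE 0.0904, adjusted p = 1.06e-05). MCM7 shares 437 bases with AT4G02050 on the opposite strand, which had a mean of 1738 counts against 2962 for MCM7.

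Per kb of exon, the 6 MCM subunits had 22.9 to 40.6 CPM in induced and 16.04 to 24.3 CPM in mock roots at 24 h. The 5 ORC subunits other than ORC1 spread more widely, from 6.40 CPM per kb (ORC2) to 22.4 CPM per kb (ORC4) in induced roots at 24 h. MCM3 and MCM7, the highest of the MCM subunits in induced roots at 24 h, did not differ beyond their spread (40.4 ± 2.2 and 40.6 ± 3.3 CPM per kb, SD, n = 3). The summed MCM2-7 level was 551 to 615 CPM in induced and 342 to 388 CPM in mock libraries at 24 h, and 390 to 425 CPM in induced and 310.5 to 370.4 CPM in mock libraries at 8 h.

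**Figure D3:**
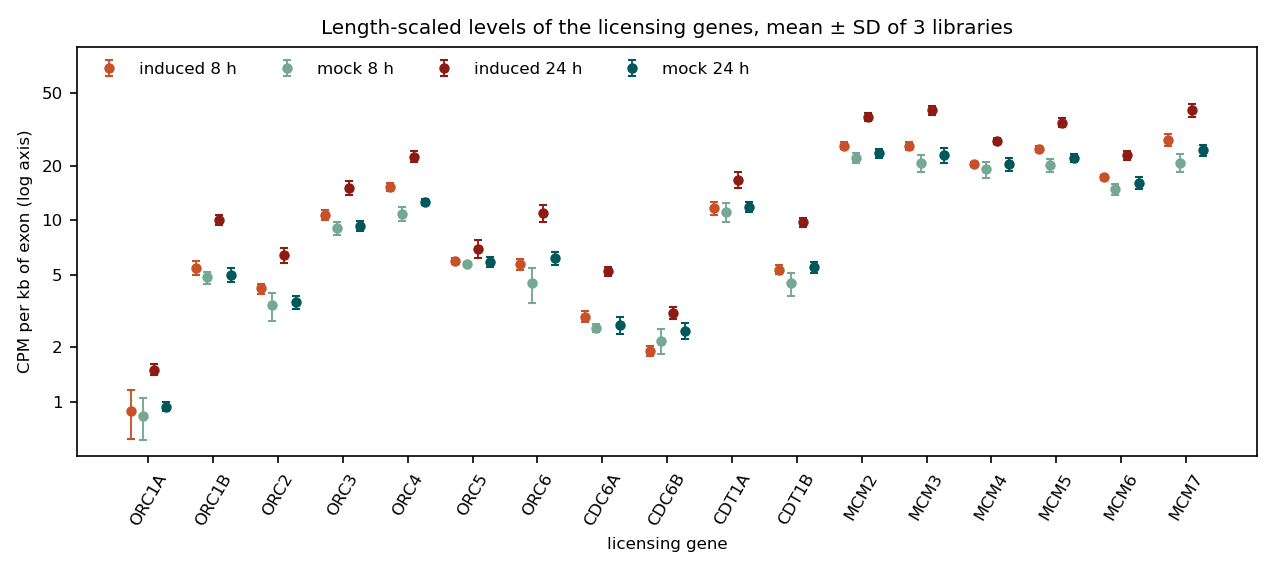
CPM per kb of exon (log axis) of the 17 licensing genes in the 4 groups, mean and SD of 3 libraries. The MCM subunits form a band between 14.8 and 40.6 CPM per kb, ORC1A lies lowest at 0.835 to 1.50, and the induced 24 h points are the highest of their gene throughout.

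The helicase activation group included the one member that fell: of 6, 2 rose and 1 fell at 8 h, and 5 rose at 24 h. With 6 genes, the 8 h counts were near the shares of all tested genes, of which 22.3% rose and 23.1% fell. At 24 h, 38.3% of tested genes rose. The difference of the responses was called higher for 4 of the 6, and for 2 on leaving out induced 24 h replicate 1. CDC45 (AT3G25100, chromosome 3, 9143916 to 9146236, plus strand), a part of the active helicase, had 6.12, 5.46 and 6.31 CPM in induced and 8.61, 7.17 and 7.78 CPM in mock libraries at 8 h. At 24 h it had 10.7, 9.76 and 9.47 CPM in induced and 10.5, 10.1 and 11.9 CPM in mock libraries. Every induced library lay below every mock library at 8 h, and the groups overlapped at 24 h. CDC45 fell by 0.40 at 8 h (SE 0.0994, adjusted p = 0.00609) in every alternative fit, total library size included, and gave -0.11 at 24 h (adjusted p = 0.292). In mock roots CDC45 was 0.46 higher at 24 h than at 8 h on the log2 scale, with no overlap, and its adjusted p was 0.0574 in edgeR with TMM, 0.0466 with total library size and 0.0079 with DESeq2. Its start is preceded by an E2F word, TTTGGCGG, as shown above.

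PSF1, a GINS subunit, gave the clearest rise of this group. It had 11.5, 13.7 and 11.7 CPM in induced and 9.61, 8.39 and 9.30 CPM in mock libraries at 8 h, and 22.5, 19.8 and 18.99 CPM in induced and 11.4, 11.2 and 11.7 CPM in mock libraries at 24 h. The groups were apart at both times, with log2 fold changes of 0.43 (SE 0.0901, adjusted p = 0.00205) and 0.84 (SE 0.087, adjusted p = 2.42e-06). The GINS subunits SLD5 and PSF2 rose at 24 h by 0.89 and 0.74 and were not called at 8 h, with 0.26 and 0.15. ETG1, which binds the MCM complex and was only grouped here with the activators, rose by 0.29 at 8 h and 0.50 at 24 h.

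MCM10, which helps to fire the helicase, was called at 24 h alone. It had 6.09, 7.14 and 7.22 CPM in induced and 7.34, 6.48 and 7.25 CPM in mock libraries at 8 h, and 15.0, 13.7 and 12.7 CPM in induced and 7.56, 7.13 and 9.14 CPM in mock libraries at 24 h. The groups overlapped at 8 h (-0.05, SE 0.112) and were apart at 24 h (0.80, SE 0.107, adjusted p = 2.5e-05). The difference of its responses was 0.84 (SE 0.155, adjusted p = 0.00103).

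The polymerase genes rose as a block: 6 of 6 were called higher at 24 h and 4 of 6 at 8 h. The difference was called for all 6. The shares of all tested genes called higher were 38.3% at 24 h, 22.3% at 8 h and 18.2% in the difference. POLD1, the catalytic subunit of polymerase delta, had 59.5, 64.4 and 64.5 CPM in induced and 49.5, 44.2 and 50.5 CPM in mock libraries at 8 h, and 98.5, 98.0 and 87.8 CPM in induced and 56.2, 51.2 and 56.5 CPM in mock libraries at 24 h. POLD2, the second subunit of that enzyme, had 12.5, 12.6 and 13.5 CPM in induced and 9.79, 9.20 and 10.9 CPM in mock libraries at 8 h, and 18.5, 18.2 and 17.9 CPM in induced and 10.2, 10.9 and 10.9 CPM in mock libraries at 24 h. Groups did not overlap for either subunit. The log2 fold changes at 8 h and 24 h were 0.39 and 0.79 for POLD1 (adjusted p = 0.000646 and 4.04e-07). For POLD2 they were 0.37 and 0.77 (adjusted p = 0.00108 and 6.38e-07). POLD2 shares 224 bases with AT2G42130 on the opposite strand, which had a mean of 664 counts against 510 for POLD2. Of the polymerase alpha-primase genes, POLA2 rose by 0.35 at 8 h and 0.84 at 24 h, while ICU2, the catalytic subunit, and POLA3, the small primase subunit, rose at 24 h by 0.49 and 0.68 and were not called at 8 h. POL2A, the catalytic subunit of polymerase epsilon, rose by 0.42 at 24 h, and its 8 h rise of 0.15 (adjusted p = 0.0457) was lost in 13 of 19 alternative fits.

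RFC4 (AT1G21690) of the clamp loader gave the second largest response of the 50 members at both times. It had 36.3, 37.3 and 40.2 CPM in induced and 25.6, 20.7 and 23.9 CPM in mock libraries at 8 h, and 52.2, 54.1 and 53.0 CPM in induced and 24.5, 22.1 and 26.9 CPM in mock libraries at 24 h. The groups were far apart, with log2 fold changes of 0.70 (SE 0.0842, adjusted p = 3.73e-05) and 1.12 (SE 0.0838, adjusted p = 1.27e-07). RFC5 (AT1G77470, named RFC3 in RefSeq) had 29.6, 32.0 and 32.3 CPM in induced and 25.7, 23.2 and 23.9 CPM in mock libraries at 8 h, and 42.9, 46.1 and 42.8 CPM in induced and 27.4, 23.7 and 24.3 CPM in mock libraries at 24 h, again without overlap (0.37 and 0.80, adjusted p = 0.000946 and 3.51e-07). The other loader subunits rose less at 24 h: RFC2 by 0.64, RFC3 (AT5G27740) by 0.53 and RFC1, the large subunit, by 0.41, of which RFC1 was not called at 8 h. FEN1, which trims Okazaki fragments, and LIG1, which joins them, rose at 24 h by 0.72 and 0.42 and were not called at 8 h. Over the 9 clamp and ligation genes, 4 rose at 8 h and 8 at 24 h, and with total library size 7 rose at 8 h. With TMM, 22.3% of all tested genes rose at 8 h and 38.3% at 24 h.

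The 2 PCNA genes, which encode the sliding clamp, share no 50-base window. PCNA1 had 34.4, 36.5 and 40.3 CPM in induced and 42.2, 30.0 and 37.9 CPM in mock libraries at 8 h, and 65.5, 59.8 and 59.5 CPM in induced and 44.4, 38.6 and 45.0 CPM in mock libraries at 24 h. PCNA2 had 52.4, 58.7 and 59.3 CPM in induced and 61.6, 50.4 and 59.8 CPM in mock libraries at 8 h, and 71.9, 68.8 and 66.4 CPM in induced and 66.6, 59.4 and 67.8 CPM in mock libraries at 24 h. At 8 h both overlapped between groups, and at 24 h PCNA1 separated while PCNA2 still overlapped. PCNA1 rose by 0.53 at 24 h (SE 0.108, adjusted p = 0.000728), and PCNA2 gave 0.10 (SE 0.0802, adjusted p = 0.301), called only with total library size (adjusted p = 0.0176). The share of PCNA1 in the length-scaled level of the pair was 47.7% to 48.8% in induced and 40.5% to 41.1% in mock roots at 24 h. PCNA2 overlaps 279 bases of AT2G29560 on the opposite strand, which had a mean of 1509 counts against 2419 for PCNA2.

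Ribonucleotide reductase, which makes the DNA building blocks, has a large subunit and small subunits that gave unlike values. RNR1, the large subunit, had 139.9, 152 and 149 CPM in induced and 116, 101 and 132 CPM in mock libraries at 8 h, and 250.2, 272 and 249 CPM in induced and 126, 127 and 155 CPM in mock libraries at 24 h. The groups did not overlap, and RNR1 rose by 0.33 after 8 h (SE 0.0987, adjusted p = 0.0153) and by 0.92 after 24 h (SE 0.0989, adjusted p = 3.38e-06). The 8 h call was lost without induced 8 h replicate 2 (adjusted p = 0.0523) or mock 8 h replicate 2 (adjusted p = 0.0624).

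TSO2 (AT3G27060, chromosome 3, 9979841 to 9981620, minus strand), a small subunit, showed the largest difference between the times. It had 98.3, 99.0 and 113 CPM in induced and 125, 101 and 116 CPM in mock libraries at 8 h, and 308, 280.0 and 257 CPM in induced and 145, 126 and 148 CPM in mock libraries at 24 h. Induced and mock libraries overlapped at 8 h, and the lowest induced library at 24 h lay well above every other library of the other groups. TSO2 gave -0.14 on the log2 scale after 8 h (SE 0.0965, adjusted p = 0.257). It rose by 1.01 after 24 h (SE 0.0966, adjusted p = 1.14e-06), and the difference of 1.15 was called (SE 0.136, adjusted p = 3.81e-05). TSO2 had the highest level per kb of the 50 members in all 4 groups, 166 CPM per kb in induced and 82.4 CPM per kb in mock roots at 24 h.

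RNR2A, the other small subunit, was not among the genes that rose. It had 36.1, 35.8 and 35.0 CPM in induced and 34.0, 30.7 and 33.0 CPM in mock libraries at 8 h, and 34.5, 34.7 and 31.4 CPM in induced and 36.4, 32.8 and 34.9 CPM in mock libraries at 24 h. It was called at neither time (0.13, SE 0.0599, and -0.05, SE 0.0598), and at 24 h its groups overlapped. With total library size its 8 h value was called (adjusted p = 0.00776). Within the pair, TSO2 held 89.0% to 89.9% of the length-scaled level in induced and 79.2% to 80.9% in mock roots at 24 h, and 73.1% to 76.4% in induced and 76.6% to 78.6% in mock roots at 8 h. RNR2A overlaps 153 bases of AT3G23570 on the opposite strand, which had a mean of 3739 counts against 1330 for RNR2A.

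**Figure D4:**
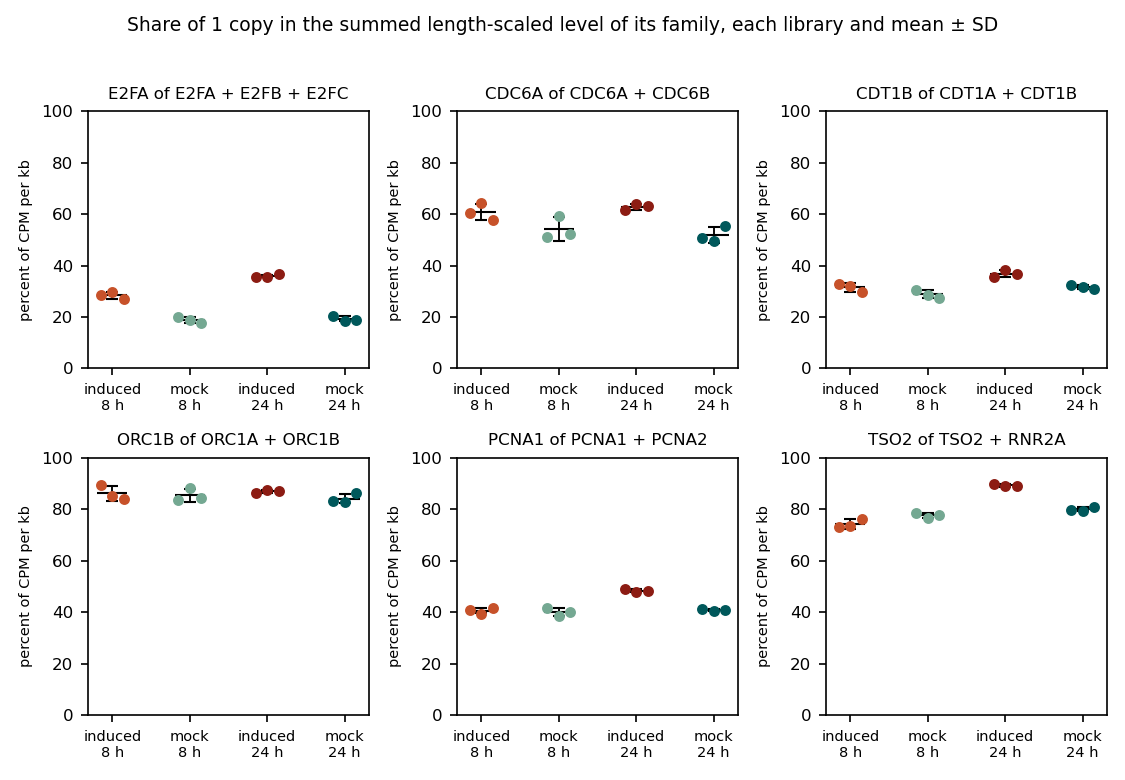
Percent of 1 copy (y axis, 0 to 100) in the summed CPM per kb of its pair or trio, in each library of the 4 groups with mean and SD. Each panel shows the copy with the largest rise at 24 h, so the copies not shown have lower shares in induced than in mock roots then. At 24 h every induced library lies above every mock library in each panel, from E2FA (35.9% in induced and 19.3% in mock roots on average) to ORC1B, where the groups are closest (87.0% and 84.2%).

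CAF-1, which places histones H3 and H4 on new DNA, rose in all 3 subunits at 24 h and in FAS1 alone at 8 h. Among all tested genes, 38.3% rose at 24 h and 22.3% at 8 h. FAS1 had 38.3, 47.4 and 42.7 CPM in induced and 32.2, 30.1 and 32.7 CPM in mock libraries at 8 h, and 55.3, 53.5 and 49.8 CPM in induced and 36.0, 31.5 and 36.3 CPM in mock libraries at 24 h. FAS2 had 14.04, 16.3 and 16.1 CPM in induced and 14.9, 13.9 and 15.1 CPM in mock libraries at 8 h, and 20.5, 21.8 and 20.05 CPM in induced and 15.8, 15.1 and 15.2 CPM in mock libraries at 24 h. The groups were apart for FAS1 at both times and for FAS2 at 24 h. FAS1 rose by 0.43 and 0.61 (adjusted p = 0.001 and 2.13e-05) and FAS2 by 0.44 at 24 h (adjusted p = 8.3e-05). The difference of the responses was called for FAS2, at 0.36 (adjusted p = 0.0104). For MSI1 it was 0.23 and not called (adjusted p = 0.0576), but was called with total library size (adjusted p = 0.0223) and on leaving out induced 8 h replicate 3 or mock 8 h replicate 2. MSI1, which also serves in other chromatin complexes, rose by 0.22 at 24 h (adjusted p = 0.00636).

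Members with an E2F word in their 250 bases rose, and so did members without one. Of the 19 with a word, 8 rose at 8 h and 18 at 24 h, with medians of 0.22 and 0.65. Of the 31 without, 15 rose at 8 h and 28 at 24 h, with medians of 0.26 and 0.77. Over all tested genes, 22.3% rose at 8 h and 38.3% at 24 h. The responses of other genes with a word were not counted. RFC4, ORC1B, TSO2 and E2FA, the members with the largest rises at 24 h, had no such word in the window. CDC45 had one and did not rise. No test of this split was made, and a word outside the window was not looked for.

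Other genes of the same processes were read from lists of related genes. Of 26 other replication factors, 9 rose and 2 fell at 8 h, and 20 rose and none fell at 24 h (median 0.57). Over all tested genes, 22.3% rose and 23.1% fell at 8 h, and 38.3% rose and 34.0% fell at 24 h. RPA3B, a subunit of the single-strand binding protein RPA, rose by 0.72 at 24 h, POLD3 by 0.82 and POLD4, both polymerase delta subunits, by 0.56. The topoisomerase gene TOP2 fell by 0.29 at 8 h (adjusted p = 0.00802) and rose by 0.63 at 24 h (adjusted p = 9.96e-06). RPA1D, which fell by 0.43 at 8 h, was the other of the 2; both were named after their values were seen. Of 5 other nucleotide supply genes, 1 rose at 8 h and 4 at 24 h, against 22.3% and 38.3% of all tested genes. Thymidine kinase TK1B led the rises (0.45 and 1.03), with DUT1 at 0.92 and THY-2 at 0.50 at 24 h.

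Genes that act beside replication did not all share the early rise. Of 10 genes for S phase histones, histone chaperones and replication-coupled chromatin marks, 2 rose and 4 fell at 8 h. At 24 h all 10 rose. Over all tested genes, 22.3% rose and 23.1% fell at 8 h, and 38.3% rose at 24 h. The share of these 10 that rose at 8 h was near that of all tested genes. The chaperone genes ASF1A and ASF1B were the 2 that rose at 8 h, by 0.25 and 0.33. The H3.1 genes HTR1, HTR2 and HTR13 and the DNA methyltransferase gene MET1 were the 4 that fell, by 0.25 to 0.39. HTR2 had 51.9, 56.9 and 59.9 CPM in induced and 81.8, 62.0 and 77.8 CPM in mock libraries at 8 h, and 144, 122 and 123 CPM in induced and 97.6, 82.2 and 96.0 CPM in mock libraries at 24 h, so that its order turned round between the times. The genes that rose or fell at 8 h are named here after their values were seen. HTR9 rose by 0.85, ASF1B by 0.80 and HTR1 by 0.64 at 24 h. The 4 falls at 8 h became 2 with total library size and on leaving out induced 8 h replicate 2, mock 8 h replicate 1 or mock 8 h replicate 3.

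Of 19 mitotic genes, none rose and 10 fell at 8 h (median -0.25), and 14 rose and 1 fell at 24 h (median 0.42). Over all tested genes, 22.3% rose and 23.1% fell at 8 h, and 38.3% rose and 34.0% fell at 24 h. CYCB2;1, a B-type cyclin, gave -0.19 at 8 h, not called, and rose by 0.98 at 24 h. CYCB1;4 fell by 0.25 at 8 h and rose by 0.59 at 24 h, and the A-type cyclin CYCA2;3 fell at both times, by 0.71 and 1.11. The count of 10 falls at 8 h ran from 4 to 13 over the alternatives: it was 4 with total library size, 5 without induced 8 h replicate 2 or mock 8 h replicate 1, and 13 in the fit of the 6 libraries of that time. No mitotic gene rose at 8 h in any alternative fit. Between the mock groups, 0.662% of tested genes were called in either direction. In mock roots 9 of the 19 were higher at 24 h than at 8 h, with a median difference of 0.42. That count ran from 0 to 13 over the alternatives and was highest with DESeq2. It was 0 in the fit of the 6 mock libraries and on leaving out mock 24 h replicate 1 or 3 or mock 8 h replicate 1 or 3. It was 1 on leaving out mock 8 h replicate 2, and 4 on leaving out induced 24 h replicate 2 or induced 8 h replicate 1.

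Of 10 D-type cyclin and CDKA genes, 2 rose and 3 fell at 8 h (4 rose with total library size), and 5 rose and 4 fell at 24 h. These shares were near those of all tested genes, of which 22.3% rose and 23.1% fell at 8 h and 38.3% rose and 34.0% fell at 24 h. CYCD3;2 rose by 0.43 at 8 h and 0.80 at 24 h, and CYCD2;1 rose by 0.59 at 24 h, while CYCD3;1 fell by 0.24 and 0.83. Of 7 DNA damage and checkpoint genes, 4 rose at 8 h and 6 at 24 h, with PARP2 at 1.25, the kinase genes ATR at 0.84 and ATM at 0.56 at 24 h.

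**Figure D5:**
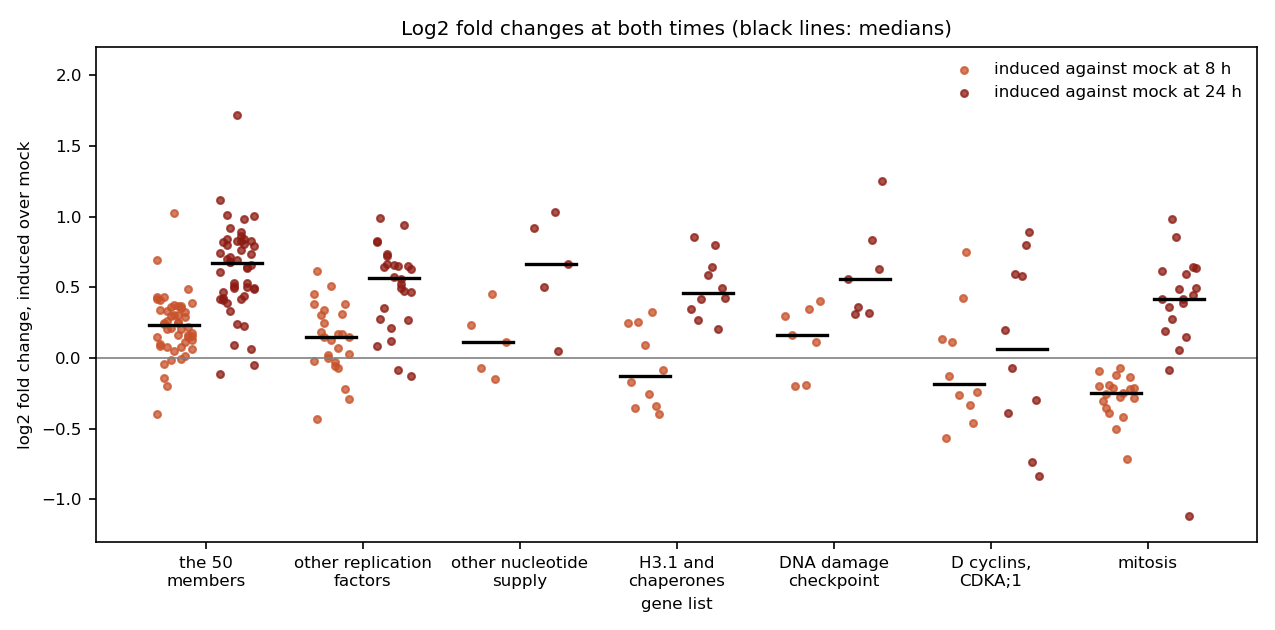
Log2 fold change of induced over mock roots (y axis) for the 50 members and 6 lists of related genes (x axis) at 8 h (left column of each pair) and 24 h (right column), each point a gene and each black line a median. The members' median is above 0 at both times (0.23 and 0.67), and the medians of mitosis (-0.25 and 0.42), of H3.1 and chaperones (-0.13 and 0.46) and of D cyclins (-0.18 and 0.07) change sign between the times.

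Markers of tissues in and around the segments moved as well. Over all tested genes, 22.3% rose and 23.1% fell at 8 h, and 38.3% rose and 34.0% fell at 24 h. The 4 cambium markers summed to 224 to 263 CPM in induced and 465 to 524 CPM in mock libraries at 8 h, and to 69.6 to 70.9 CPM in induced and 488 to 513 CPM in mock libraries at 24 h, and all 4 fell at both times, led by PXY, WOX4 and ANT (by 3.22, 4.31 and 2.79 at 24 h). Of 5 markers of suberised layers, 4 fell at 8 h and 5 at 24 h, where they summed to 13.1 to 27.1 CPM in induced and 468 to 542 CPM in mock libraries, ABCG20, CYP86B1 and MYB9 falling by 4.89, 5.45 and 5.04. None of 5 xylem markers was called at 8 h, and at 24 h all 5 fell, to 121 to 179 CPM in induced, against 455 to 695 CPM in mock libraries, XCP1, CESA4 and CESA7 by 1.90, 1.91 and 1.74.

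Root tip markers were near 0. The 8 genes summed to 8.75 to 9.63 CPM in induced and 0.575 to 1.73 CPM in mock libraries at 24 h, and to 1.71 to 2.07 CPM in induced and 0.744 to 2.15 CPM in mock libraries at 8 h. Of the 6 tested, 1 rose at 8 h and 5 at 24 h, led by WOX5, PLT1 and FEZ (by 4.90, 3.49 and 6.34 at 24 h), and RGF1, FEZ and BRN2 were at 0 in at least 1 mock library of each time. Over the alternatives the count at 24 h ran from 1, where genes needed a mean of at least 50 counts to be tested, to 6 with no low-count filter. The 1 rise at 8 h was called neither in the fit of 6 libraries nor under that minimum. It was near the share of all tested genes that rose at 8 h, 22.3%, while 23.1% fell. At 24 h, 38.3% of tested genes rose and 34.0% fell. Of 4 lateral root markers, LBD16 and LBD33 rose at both times (by 2.09 and 4.13 at 24 h), LBD18 fell by 0.92 at 24 h (not called with total library size or on leaving out induced 24 h replicate 1 or mock 24 h replicate 1 or 2) and LBD29 was not called. They summed to 8.52 to 9.13 CPM in induced and 1.73 to 2.78 CPM in mock libraries at 24 h, and to 5.18 to 7.73 CPM in induced and 2.27 to 2.40 CPM in mock libraries at 8 h. Of 5 green tissue markers, 3 rose at 8 h (1 on leaving out induced 8 h replicate 1 or 2) and 4 fell at 24 h, LHCB1.2, LHCB1.3 and RBCS1A by 3.54, 0.85 and 0.35 at 24 h, where they summed to 1485 to 1598 CPM in induced and 2070.0 to 2789 CPM in mock libraries. In pooled segments, fewer cells of a type and less RNA per cell cannot be told apart, and the part of these tissue shifts in the rise of the replication and E2F genes was not tested.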

How the data were processed

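Each of the 12 deposited files holds 1 column of whole-number gene counts made by the authors, with locus, chromosome, start, end, length and strand, per the file headers, on TAIR10, per the submitters' processing notes. Aligner, counting program and strandedness of counting: not given in the sources used here. No locus row was a summary of unassigned reads. Genes were tested in R 4.3.3 with edgeR 4.0.16 (TMM, filterByExpr by group, 1 coefficient per group over all 12 libraries, quasi-likelihood F test, Benjamini-Hochberg over 21439 genes, called at 0.05). The procedure was tested on simulated data in which few genes changed, in the induced 8 h group alone. Such data could not check the scaling where as many genes change as here. SE is the absolute log2 fold change divided by the square root of F. With no word in the labels on separate cultures beyond "biological replicate", p-values measure the spread between these samples.

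Members and lists were chosen with earlier results of these data known. Values in every library are given for the E2F, DP and RBR genes, the 5 copy pairs, the 2 called members of lowest adjusted p at each time in every other role, and members whose difference was called with a sign opposite to their 8 h response. Of each other list, up to 3 called genes of lowest adjusted p at 24 h are named, and others where stated.

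CPM per kb uses the union of RefSeq exons. RefSeq TAIR10.1 matched 32548 of 34262 loci, and start and end were identical for 99.95% of those. Of the 50 members, 19 overlap another locus, 17 of them one on the opposite strand. Alternatives were RLE factors, total library size, no low-count filter, a mean of at least 50 counts, DESeq2 1.42.0, a replicate block, fits of 6 libraries, leaving out each library, and a log2 fold change of at least 1. Member counts ran from 50 to 12909 per library, so counting error weighs most on ORC1A and similarly low genes. The common biological coefficient of variation was 0.0926.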

Additional observations from a re-analysis of the deposited data

Results flagged for a closer look

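For 35 of the 50 members the response to induction differed between the times, by the test of the difference itself (log2 fold change at 24 h minus that at 8 h, edgeR, adjusted p under 0.05). All 35 differences were above 0. Among licensing genes the difference was 0.83 for ORC1B, 0.55 for ORC2, 0.46 for ORC3, 0.34 for ORC4, 0.78 for CDC6A, 0.53 for CDC6B, 0.43 for CDT1A and 0.58 for CDT1B. For the MCM helicase it was 0.44 for MCM2, 0.52 for MCM3, 0.32 for MCM4, 0.36 for MCM5 and 0.30 for MCM6. Among helicase activators it was 0.84 for MCM10, 0.64 for SLD5, 0.41 for PSF1 and 0.59 for PSF2. Among polymerases it was 0.33 for ICU2, 0.49 for POLA2, 0.42 for POLA3, 0.27 for POL2A, 0.41 for POLD1 and 0.40 for POLD2. For clamp and ligation genes it was 0.52 for PCNA1, 0.33 for RFC1, 0.31 for RFC2, 0.44 for RFC5, 0.42 for RFC4 and 0.51 for FEN1. It was 0.59 for RNR1, 1.15 for TSO2, 0.36 for FAS2, 0.69 for E2FA, 0.39 for E2FC and 0.32 for RBR1. The call of RFC2 was lost in 12 of 18 alternative fits, that of POLA3 in 9, CDC6B in 8, SLD5 in 7, MCM4 in 6, ORC2, ORC4, CDT1A and MCM6 in 5 each and PSF1 in 2. CDC6B, MCM10 and TSO2 had a fold change under 0 at 8 h, none of them called there.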

How the results depend on the processing

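No value reversed its direction among the called members. With total library size, 37 members were called at 8 h (36 higher) and 1 in mock roots between the times. With a log2 fold change of at least 1, 2085 genes and 1 member were called at 8 h, 5185 genes and 4 members at 24 h, 2976 genes and 1 member in the difference, and 4 genes between the mock groups. Between the mock groups, 142 genes became 385 with DESeq2, 271 with the replicate block and 0 with the fit of 6 libraries, and the members called became 1 with DESeq2 and 1 with the replicate block. Leaving out 1 library gave 1 to 204 genes between the mock groups, 17 to 30 members higher at 8 h, 44 to 46 at 24 h and 25 to 39 in the difference. Between the mock groups, 1 gene was called on leaving out mock 24 h replicate 1 or mock 8 h replicate 3, 5 on leaving out mock 24 h replicate 3, 7 for mock 8 h replicate 1, 20 for mock 8 h replicate 2 and 79 for induced 8 h replicate 1. Fewer samples remain in these fits. Same-numbered induced and mock libraries correlated in their deviations at -0.004 to 0.171 at 8 h and 0.059 to 0.253 at 24 h, so the replicate numbers are not taken to pair the samples. With the replicate block 26 members were called at 8 h, 46 at 24 h and 36 in the difference. The block added calls of ORC6 (adjusted p = 0.0463) and DPB (adjusted p = 0.0339) at 8 h, of MSI1 in the difference (adjusted p = 0.0306) and of CDC45 between the mock groups (adjusted p = 0.0285), with edgeR.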
